A study of Homo sapiens with 97 samples.

Results

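A set of 10 human genes of the cytosolic heat shock and oxidative stress responses were followed through every count table of a study that used APEX-seq to map where RNAs lie in HEK293T cells. The genes, 10 of 60675 gene IDs in the tables, were chosen by name: the HSP70 genes HSPA1A, HSPA1B and HSPA8, the cochaperones HSPH1, DNAJB1 and BAG3, the HSP90 genes HSP90AA1 and HSP90AB1, the small heat shock protein gene HSPB1, and the heme oxygenase gene HMOX1. In APEX-seq, a peroxidase (APEX2) fused to a localisation sequence turns biotin-phenol into a short-lived radical when hydrogen peroxide is added, so that RNA near the enzyme is biotinylated, pulled down and sequenced. HEK293T is a human embryonic kidney cell line, and each construct was carried by its own stable line. The comparisons below ask where these mRNAs lie, and how they stood in cells exposed to peroxide and to drugs.

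Labelled cells received biotin-phenol for 30 min and then 1 mM hydrogen peroxide for 1 min. Unlabelled cells received biotin-phenol, and everything else in the procedure, without the peroxide. The labelled and unlabelled groups, with 2 replicates in each, covered 9 constructs: NLS (nucleus), NIK (nucleolus), LMA (nuclear lamina), NucPore (nuclear pore), NES (cytosol), ERM (endoplasmic reticulum membrane, cytosolic face), KDEL (endoplasmic reticulum lumen), OMM (outer mitochondrial membrane) and MITO (mitochondrial matrix). MITO was sequenced after poly(A) selection and as total RNA. The OMM and NES lines were also treated with cycloheximide, puromycin or CCCP, each labelled and unlabelled, and with nocodazole for 3, 6, 9 and 30 min and 2 h, with unlabelled controls at 3 and 30 min. Nuclear and cytosol fractions of HEK293T cells, with 2 replicates each, were sequenced without labelling. The doses of the drugs, and the durations of all but nocodazole, are not given in the sources used here.

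Heat shock proteins bind unfolded proteins and help them fold, and most of their genes are switched on by the transcription factor HSF1, which binds repeats of a short heat shock element in their promoters. HSC70 (HSPA8) and HSP90-beta (HSP90AB1) are abundant in unstressed cells, whereas HSPA1A, HSPA1B and DNAJB1 are known for strong induction by heat, proteotoxic agents and oxidants. HMOX1 breaks down heme and is a classical target of NRF2, the transcription factor that answers oxidants through the antioxidant response element. Their mRNAs encode cytosolic proteins and are translated mostly on free ribosomes, except that the heme oxygenase protein is anchored in the endoplasmic reticulum membrane by its tail.

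The promoter sequences show how alike the members' control regions are, and how alike HSPA1A and HSPA1B are, which bears on how their reads could be counted. RefSeq promoters (GRCh38.p14, 5′ to 3′ on the strand of the gene) were found for 9 of the 10 genes, HMOX1 being named only. Capitals mark the heat shock element found in each, searched on both strands over the 250 bases before the start site.
HSPA1A, chr6:31815343-31815462, plus strand: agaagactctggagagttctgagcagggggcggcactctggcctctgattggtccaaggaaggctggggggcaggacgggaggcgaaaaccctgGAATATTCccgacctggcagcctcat
HSPA1B, chr6:31827539-31827658, plus strand: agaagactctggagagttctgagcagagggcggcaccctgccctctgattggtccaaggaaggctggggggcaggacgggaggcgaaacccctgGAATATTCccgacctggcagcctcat
HSPA8, upstream element, chr11:123062346-123062374, minus strand: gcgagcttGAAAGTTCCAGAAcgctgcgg
HSPA8, downstream element, chr11:123062171-123062199, minus strand: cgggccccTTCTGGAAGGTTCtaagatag
DNAJB1, upstream element, chr19:14518457-14518484, minus strand: gggcggggcgGAAGGTTCtggagggggc
DNAJB1, downstream element, chr19:14518427-14518454, minus strand: gcgggctctgGAAGCTTCcgccggacgg
HSP90AA1, chr14:102087112-102087140, minus strand: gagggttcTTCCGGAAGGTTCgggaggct
HSP90AB1, upstream element, chr6:44247770-44247798, plus strand: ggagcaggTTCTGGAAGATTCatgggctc
HSP90AB1, downstream element, chr6:44247823-44247851, plus strand: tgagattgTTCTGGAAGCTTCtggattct
HSPB1, chr7:76302481-76302508, plus strand: cttaacgagaGAAGGTTCcagatgaggg

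A heat shock element of 3 units (GAANNTTCNNGAA or TTCNNGAANNTTC) stood in the promoters of 3 of the 9 genes, HSPA8, HSP90AA1 and HSP90AB1, against 0.557% of the 27305 genes with a window of the same length (1 gene can have several windows, and any of them counts). The shorter element of 2 units (GAANNTTC or TTCNNGAA), which every 3-unit element contains, stood in those of 7 of the 9 genes, all but HSPH1 and BAG3, against 14.0% of these genes. The core of the antioxidant response element (TGANNNNGC or GCNNNNTCA) stood in those of 4 of the 9 genes, HSPA1A, HSPA1B, DNAJB1 and HSP90AB1, against 40.3% of these genes. A match describes letters and is not evidence of binding.

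The promoter windows of HSPA1A and HSPA1B printed above are identical at 116 of 120 positions, and their transcripts are near copies too. Of all 75-base windows of the HSPA1A transcript (2483 bases, a single exon on chromosome 6, GRCh38, 31815464 to 31817946), 71.2% also occur in the HSPA1B transcript (chromosome 6, 31827735 to 31830255). HSPA1B shares 36.5% of its exon bases with another annotated gene on its own strand, AL671762.1. The values below for HSPA1B can therefore not be told apart from those of HSPA1A or of that gene.

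The libraries held 2835969 to 76714068 counts, and the 36 construct libraries 9330259 to 76714068. Levels are given as normalised CPM, a gene's count relative to its library's total after scaling by edgeR's TMM factors, so that values are comparable within a table. Differences are log2 fold changes of labelled over unlabelled libraries with their standard error (SE), unless another pair is named, and a gene was called at an adjusted p under 0.05 in edgeR's quasi-likelihood test with Benjamini-Hochberg adjustment over all genes tested. Several landmark RNAs followed the labels: MALAT1, a nuclear RNA, was higher by 3.65 in NLS, 2.41 in NIK and 2.30 in LMA, SCD by 2.76 in ERM, ALDH18A1 by 3.32 in OMM and MT-CO1 by 4.43 in MITO. The labels were not fully apart, since SCD (1.94) and SEC61A1 (1.37) were also called higher in OMM. RPS29, which encodes a ribosomal protein, was called lower in labelled NES (−1.26), and also in NLS, NIK, LMA, ERM and OMM. A lower value in labelled libraries was thus not particular to the members. In NucPore and KDEL the landmarks did not follow the label, with MALAT1 at 0.96 (adjusted p = 0.787) in NucPore and SCD at −0.19 in KDEL, neither called. Of the genes listed as markers of the line, the neurofilament genes NEFM and NEFL had medians of 71.8 and 49.9 CPM, whereas the kidney lineage genes PAX2 and LHX1 were low, with medians of 1.73 and 2.14 CPM, and were at 0 in 23 and 18 of 100 library columns. Of the markers of other cell types, the blood cell gene PTPRC was at 0 in 94 of 100 columns and the hepatocyte gene ALB in 87. In 17 of 100 library columns more than 2% of well-expressed genes (a mean of at least 5 CPM) were at 0, up to 16.3%, a sign of few distinct molecules. Among these low-complexity libraries were NIK-labelled replicates 1 and 2, ERM-labelled 1, NES-unlabelled 1, OMM-unlabelled 2, both unlabelled OMM cycloheximide libraries and all 4 unlabelled OMM nocodazole libraries. A refit without them keeps the most complete library of a group that would lose all. The labels call the replicates biological, with no animals or donors behind a cell line, so the p-values measure the spread between cultures. With so few libraries a group, groups can stand apart without a call. The share of all genes whose groups stood apart is not given here, so such counts only describe the members. In bulk samples, a change in RNA per cell and a change in the share of cells holding it cannot be told apart, and between labelled and unlabelled libraries neither can the peroxide itself and the pull-down of biotinylated RNA.

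In unlabelled libraries both HSP90 genes and HSPA8 stood above the other members. By the procedure described above, these libraries lacked only the peroxide step, so they may not measure levels in whole cells. Levels per kilobase were divided by all annotated exon bases of a gene, which can exceed the length of a single transcript. On this scale, over 18 unlabelled construct libraries, HSP90AB1 had a median level of 806.8 CPM (640.8 to 1081), HSP90AA1 665.9 (472.3 to 997.1) and HSPA8 406.3 (261.6 to 587.8). HSPA1B followed at 63.35 CPM per kb (19.96 to 115.8), then HSPH1 at 40.8 (25.38 to 56.44), DNAJB1 at 37.09 (19.92 to 51.42) and HSPB1 at 31.75 (14.7 to 52.16). BAG3, at 17.43 CPM per kb (13.94 to 22.66), and HMOX1, at 8.201 (5.0 to 15.91), were the lowest of the 9 members that passed the filter on low counts. The ranges of neighbours in this order overlapped, except that HSPA8 stood clear of HSPA1B. The order depends on the length used. By median CPM alone, HSP90AA1 (3494) stood above HSP90AB1 (2404), and HSPH1 (342.2) above HSPA1B (159.7).

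HSPA1A was listed with almost no counts. It was at 0 in 21 of the 36 construct libraries and reached at most 12 counts, in OMM-labelled replicate 2, while HSPA1B had 789 to 13516 counts in the same libraries. Its highest value anywhere was 284 counts (9.45 CPM in the drug table), in the unlabelled OMM cycloheximide replicate 1, where HSPA1B also stood high. Because the transcripts share most of their 75-base windows, and the way the authors' counting treated reads with several matches is not given in the sources used here, these values are no measure of HSPA1A transcription. Summing the counts of HSPA1A and HSPA1B changed no call. HSPA1A passed the filter on low counts in the drug and fraction tables and in the joined set of unlabelled OMM and NES libraries, and was called in none of them.

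Where members were called between peroxide-labelled and unlabelled libraries, they were mostly lower in the labelled ones. Across the 9 constructs edgeR made 19 calls among the 9 tested members, and 18 of them were lower in labelled than in unlabelled libraries. In NLS, 5 of 9 members were lower (HSPA1B, HSPA8, HSPH1, HSP90AA1 and HSP90AB1), against 2.42% of the 22680 genes tested. In LMA 4 were lower (HSPA8, DNAJB1, HSP90AA1 and HSP90AB1), against 4.00%, and in ERM 4 (HSPA1B, HSPA8, HSP90AB1 and HSPB1), against 7.60%. In OMM 3 were lower (HSPA8, HSPH1 and HSP90AB1), against 1.98%, in NIK 1 (HSPB1), against 3.96%, and in NES 1 (HSPA8), against 2.50%. The single higher call was DNAJB1 in NES, against 1.38% of genes called higher there.

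In NucPore, KDEL and poly(A) MITO edgeR called no member. It called 0% of all genes in NucPore, where 1341 genes had an unadjusted p under 0.05 and DESeq2 called 237, with no member among either. It also called 0% in KDEL, where 46 genes had an unadjusted p under 0.05 and DESeq2 called 0, again with no member, and the members' log2 fold changes lay between −0.22 and 0.53. In poly(A) MITO 1.05% of genes were called, 4 members had an unadjusted p under 0.05, and DESeq2 called HSPA8 (−0.65) and HSPH1 (−0.60) lower.

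**Figure D1:**
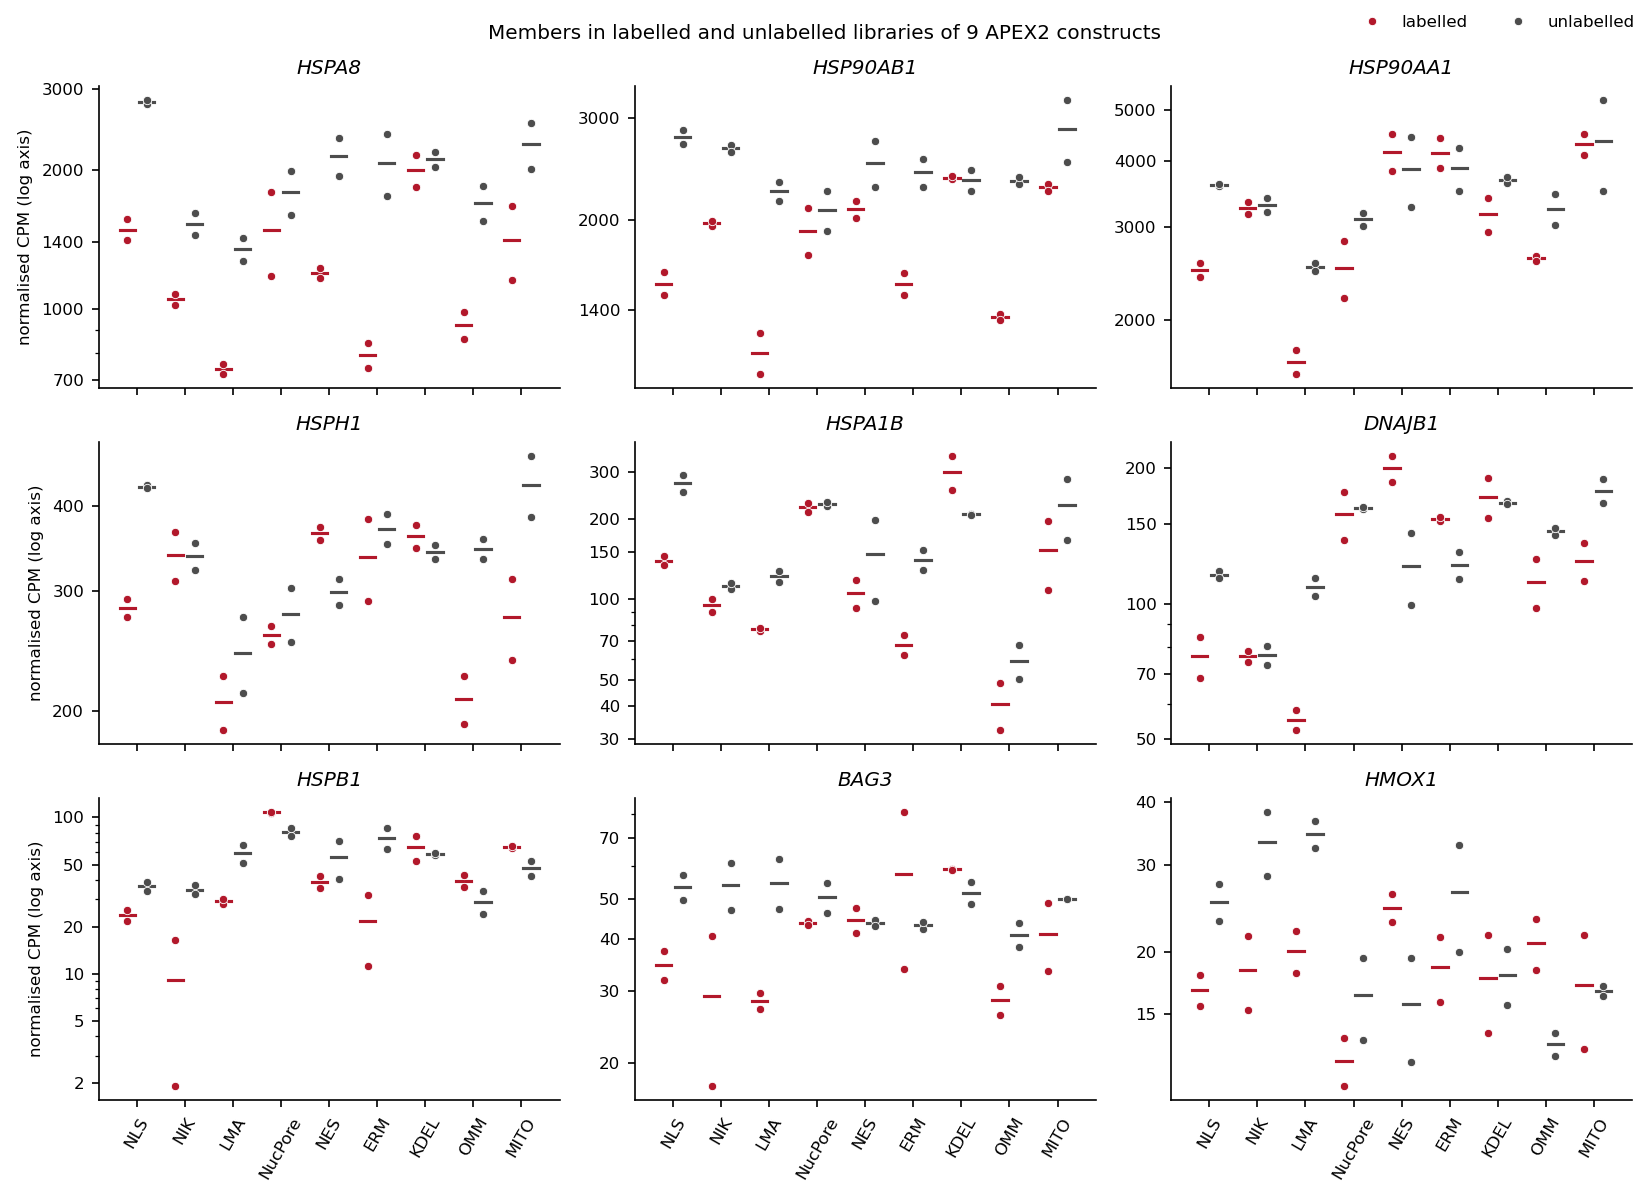
Normalised CPM (log10 axis) of the 9 tested genes in each construct, labelled libraries left of unlabelled ones, with 1 point per library and a bar at the mean of 2. HSPA8 and HSP90AB1 are lower in both labelled libraries of 7 of the 9 constructs, and the points of KDEL overlap or lie close for most genes.

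HSPA8 encodes the constitutive HSP70 chaperone, which folds new chains and strips clathrin coats, and it was called lower in 5 of the 9 constructs. In ERM it had 841.7 and 740.8 CPM in labelled libraries, against 2396 and 1756 in unlabelled ones, a log2 fold change of −1.39 (SE 0.19, adjusted p = 8.71e-07), or 2.62-fold lower. In NLS it had 1564 and 1408 CPM labelled, against 2784 and 2850 unlabelled (−0.92, SE 0.18, adjusted p = 0.00133). In LMA it had 720.1 and 758.1 CPM labelled, against 1424 and 1269 unlabelled (−0.87, SE 0.18, adjusted p = 0.00169). Labelled and unlabelled libraries did not overlap in any of these 3 constructs, and leaving out any 1 library kept the calls.

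HSPA8 was also called lower at the outer mitochondrial membrane and in the cytosol. In OMM it had 981.2 and 858.5 CPM labelled, against 1845 and 1555 unlabelled (−0.89, SE 0.18, adjusted p = 0.00169). In NES it had 1226 and 1166 CPM labelled, against 2348 and 1949 unlabelled (−0.85, SE 0.18, adjusted p = 0.00427). The groups were apart in both, with the low-complexity OMM-unlabelled 2 among the controls of OMM. The OMM call was lost without OMM-labelled replicate 2, and the NES call without NES-labelled 2 or NES-unlabelled 1. In KDEL the labelled values of 2155 and 1844 CPM overlapped the unlabelled ones of 2195 and 2036, and in NucPore 1175 and 1793 overlapped 1596 and 1992. NIK (1017 and 1078 labelled, 1614 and 1443 unlabelled; −0.55, adjusted p = 0.0806) and poly(A) MITO (1669 and 1152 labelled, 2539 and 2017 unlabelled; −0.69, adjusted p = 0.0575) were apart without a call.

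HSPA1B encodes the stress-induced HSP70 and was called lower in ERM and NLS. In ERM it had 73.51 and 61.71 CPM labelled, against 129.1 and 152.8 unlabelled (−1.06, SE 0.28, adjusted p = 0.00749). In NLS it had 144.9 and 134.3 CPM labelled, against 291.9 and 251.7 unlabelled (−0.96, SE 0.28, adjusted p = 0.0346). The groups did not overlap, but the NLS call was lost without any 1 of its 4 libraries, and the ERM call without ERM-labelled 2 or ERM-unlabelled 2. In OMM, which held the lowest unlabelled value, it had 32.30 and 48.74 CPM labelled, against 67.32 and 50.32 unlabelled (−0.54, adjusted p = 0.394). In KDEL the labelled values of 344.8 and 257.3 CPM lay above the unlabelled 209.6 and 206.6, without a call. The choice of controls moved the values. Set against the unlabelled libraries of all 9 constructs, HSPA1B in NLS was −0.14 and not called, and in OMM −1.92 and called. With those controls HSPH1 in NLS was −0.25 and not called, and HSPA8 in NLS was −0.38 and called (adjusted p = 0.0433). The authors' deposited table gives −2.10 for HSPA1B in OMM (p = 2.14e-05).

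DNAJB1, the J-domain protein that loads clients on HSP70, was the one member with calls in both directions. In NES it had 186.4 and 213.0 CPM labelled, against 99.24 and 143.4 unlabelled, a log2 fold change of 0.72 (SE 0.21, adjusted p = 0.0395), or 1.65-fold higher. In LMA it had 52.36 and 57.98 CPM labelled, against 103.8 and 114.1 unlabelled (−0.98, SE 0.21, adjusted p = 0.00161). Neither pair of groups overlapped. The LMA call was lost without LMA-labelled 1. The NES call was lost without NES-labelled 1, NES-labelled 2 or NES-unlabelled 1, and the last of these, the lower of the controls, is a low-complexity library in which 3.37% of well-expressed genes were at 0. Without all low-complexity libraries the NES difference was 0.50 and not called, and the authors' deposited table gives 0.53 (p = 0.152). The NES call was also lost with RLE size factors, without the filter on low counts, with the replicate block and with its own libraries only. In NIK the labelled values of 78.69 and 74.34 CPM overlapped the unlabelled 80.66 and 73.16.

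The labelling difference of DNAJB1 was compared between NES and other constructs. Taken as a difference of differences, DNAJB1 was at −1.32 in NLS against NES (SE 0.29, adjusted p = 0.00681), where 0.922% of genes were called lower. It was −1.24 in poly(A) MITO against NES (SE 0.29, adjusted p = 0.0271; 0.220% of genes) and −1.09 in OMM against NES (SE 0.29, adjusted p = 0.0413; 0.141% of genes). All 3 share the NES libraries, and each call was lost without NES-unlabelled 1. HSPH1 was the only other member called in these contrasts, at −1.01 in OMM against NES (SE 0.25, adjusted p = 0.0230), also lost without that library. In ERM against NES edgeR called no member and 3.84% of genes; 3607 genes and 1 member, HSPA8, had an unadjusted p under 0.05, and DESeq2 called 1827 genes and no member. In KDEL against NES it called no member and 0.507% of genes; 1543 genes and 3 members had an unadjusted p under 0.05, and DESeq2 called 612 genes, of which HSPA8 was a member, at 0.81 (adjusted p = 0.0368).

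HSPH1, the HSP110 that serves HSP70 as nucleotide exchange factor, was called lower in OMM and NLS. In OMM it had 191.9 and 225.6 CPM labelled, against 334.3 and 357.2 unlabelled (−0.73, SE 0.18, adjusted p = 0.00898). In NLS it had 274.8 and 292.2 CPM labelled, against 428.8 and 424.8 unlabelled (−0.59, SE 0.18, adjusted p = 0.0447). In NES the order was the other way round, 357.0 and 372.2 CPM labelled, against 286.6 and 312.2 unlabelled, without a call. The OMM call was lost without OMM-labelled 1 or OMM-unlabelled 2, the last a low-complexity library. The NLS call was lost without any 1 of its 4 libraries, and also with RLE size factors or with the replicate block.

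BAG3, an HSP70 cochaperone that steers clients to autophagy, was called by edgeR in no construct, although its labelled libraries lay below both unlabelled ones in 6 of 9. In LMA it had 27.06 and 29.58 CPM labelled, against 47.12 and 62.25 unlabelled (−0.95, adjusted p = 0.116), and DESeq2 called it lower there (−0.89, adjusted p = 0.0491). In OMM it had 26.20 and 30.69 CPM labelled, against 38.29 and 43.58 unlabelled, and the authors' deposited table gives −0.83 there (p = 1.35e-05). In ERM the labelled replicates disagreed, at 81.05 and 33.91 CPM, against 42.24 and 44.03 unlabelled, and the high one is the low-complexity ERM-labelled 1.

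Of the HSP90 genes, the constitutive HSP90AB1 moved in 4 constructs and the inducible HSP90AA1 in 2. HSP90AB1 had 1084 and 1278 CPM in labelled LMA, against 2328 and 2157 in unlabelled LMA (−0.93, SE 0.14, adjusted p = 1.63e-05). It had 1623 and 1483 CPM in labelled NLS, against 2702 and 2857 unlabelled (−0.84, SE 0.14, adjusted p = 0.000109), and 1377 and 1342 in labelled OMM, against 2301 and 2368 unlabelled (−0.78, SE 0.14, adjusted p = 0.000221). In ERM it had 1621 and 1482 CPM labelled, against 2549 and 2278 unlabelled (−0.64, SE 0.14, adjusted p = 0.000887). The groups stood apart in all 4, and each call held without any 1 library. In KDEL the labelled 2350 and 2378 CPM overlapped the unlabelled 2246 and 2441.

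HSP90AA1 had 1577 and 1754 CPM in labelled LMA, against 2566 and 2479 unlabelled (−0.60, SE 0.16, adjusted p = 0.0124), and 2415 and 2558 in labelled NLS, against 3585 and 3627 unlabelled (−0.54, SE 0.16, adjusted p = 0.0383). Labelled values were below unlabelled ones in both. In ERM its labelled 4421 and 3881 CPM overlapped the unlabelled 4241 and 3516, and in NES the labelled 3838 and 4508 overlapped 4445 and 3277. The NLS call was lost without any 1 of its libraries and the LMA call without LMA-labelled 1 or either unlabelled library. Part of the HSP90AB1 reads may belong to its pseudogenes: the 5 named ones together had 3.37% to 7.31% of its counts. For HSPA8 the 17 named ones had 0.579% to 2.51% of its counts.

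HSPB1 encodes the small heat shock protein HSP27, which holds unfolded clients for HSP70. It was called lower in NIK and ERM. In NIK it had 1.903 and 16.37 CPM labelled, against 36.90 and 32.15 unlabelled (−1.92, SE 0.51, adjusted p = 0.0206). In ERM it had 11.21 and 32.13 CPM labelled, against 62.88 and 85.04 unlabelled (−1.77, SE 0.51, adjusted p = 0.0149). The groups did not overlap, but the lowest value of each came from a low-complexity library, NIK-labelled 1 and ERM-labelled 1. The NIK call was lost without NIK-labelled 1 or either unlabelled library. With 1 library left out, the NIK difference ranged from −4.19 to −1.11, the smallest being that without NIK-labelled 1. The ERM call was lost without ERM-labelled 1 or ERM-unlabelled 2. Reads of HSPB1 may also be shared with pseudogenes, of which the 2 named ones had 0.0% to 19.0% of its counts. Refitted without low-complexity libraries, which left 1 labelled ERM library, HSPB1 in ERM was −1.18. In NucPore it stood higher in both labelled libraries (106.9 and 108.3 CPM, against 76.38 and 85.22 unlabelled) without a call in the full fit.

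HMOX1, the member best known for induction by oxidants, was called in no construct. Labelled cells met peroxide for 1 min only, so these contrasts are no test of induction and could not show a later rise. It had 23.00 and 26.11 CPM in labelled NES, against 12.02 and 19.42 unlabelled (0.64, adjusted p = 0.673), and 18.38 and 23.30 in labelled OMM, against 13.71 and 12.35 unlabelled (0.68, adjusted p = 0.594). In NIK it had 15.29 and 21.51 CPM labelled, against 38.27 and 28.47 unlabelled, and in LMA 22.00 and 18.12 labelled, against 32.40 and 36.68 unlabelled. The labelled libraries were thus apart upwards in 2 constructs and downwards in 3, and overlapped in 4. Its SE was 0.52 in NES, and in simulated counts of the NES contrast the test called 10% of genes changed 2-fold and 52% of genes changed 4-fold, so that a change of that size may not have been detectable.

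**Figure D2:**
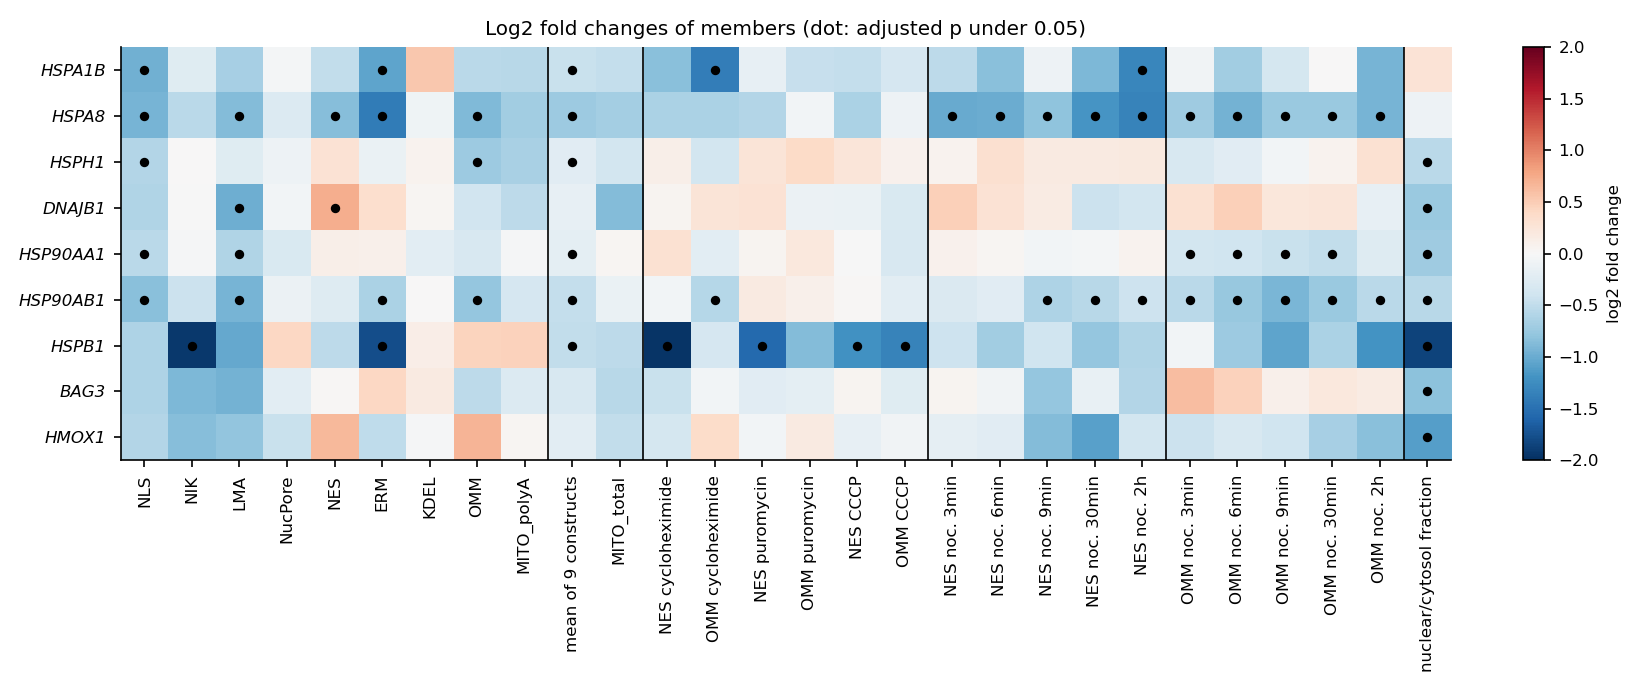
Log2 fold change of labelled over unlabelled libraries for each tested gene (rows) in each labelling contrast (columns), in colour, from −2 to 2, a dot marking an adjusted p under 0.05. The last column is nuclear over cytosol fraction. Blue cells, lower in the labelled libraries, fill most of the HSPA8 row, which reaches −1.39 in ERM.

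Averaged over the 9 constructs, 6 of 9 members were lower in labelled libraries, against 8.73% of all genes. HSPA8 was at −0.72 (SE 0.06, adjusted p = 4.87e-11), HSP90AB1 was at −0.48 (SE 0.05, adjusted p = 5.96e-10) and HSPA1B at −0.45 (SE 0.09, adjusted p = 0.000486). HSPB1 was at −0.49 (SE 0.16, adjusted p = 0.0368), HSPH1 at −0.23 (SE 0.06, adjusted p = 0.00467) and HSP90AA1 at −0.20 (SE 0.05, adjusted p = 0.0055). HSPB1 alone among these lost its call when libraries were left out 1 at a time, for 12 of 36. DNAJB1 (−0.16, adjusted p = 0.126), BAG3 (−0.32, adjusted p = 0.0679) and HMOX1 (−0.20, adjusted p = 0.62) were not called, and no member was called higher. DESeq2 also called BAG3 lower (−0.29, adjusted p = 0.0384). The median of the 9 members was −0.32, against 0.15 for all genes.

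Other genes of these programmes were counted from lists. In the mean of the 9 constructs, 7.76% of all genes were called higher and 8.73% lower. Of 46 tested genes of an HSF1 and heat shock list, 2 were called higher and 19 lower there, with a median of −0.23. The lower ones included the polyubiquitin gene UBB (−1.04) and the mitochondrial chaperonin HSPD1 (−0.46). The higher ones were BAG5 (0.33) and HSPA12A (0.52). Of 51 tested genes of an NRF2 and oxidative stress list, 2 were higher and 27 lower, with a median of −0.47. The peroxiredoxins PRDX1 (−0.94), PRDX3 (−0.73) and PRDX6 (−0.72), which reduce peroxides, were among the lower ones. The NRF2 partners MAFG (0.85) and MAFK (0.68) were the higher ones. In ERM 22 of the NRF2 genes were lower and 3 higher, against 7.60% of all genes lower and 5.26% higher, with a median of −0.78 against 0.0 for all genes. There, PRDX1 was at −2.21 and UBB at −2.26, while HSPA13, whose protein enters the endoplasmic reticulum, was at 1.10. In OMM, SERPINH1, the collagen chaperone of the endoplasmic reticulum, was at 1.72.

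Total RNA from the MITO line gave no call among the members. Their log2 fold changes lay between −0.86 (DNAJB1, adjusted p = 0.276) and 0.03, with HSPA8 at −0.68 (adjusted p = 0.405). edgeR called 0.630% of the 14911 genes tested, 1661 genes and 2 members had an unadjusted p under 0.05, and DESeq2 called 564 genes and no member. One of the labelled libraries there, MITO total replicate 1, had 6.72% of well-expressed genes at 0. Total against poly(A) RNA of unlabelled MITO cells likewise gave no member, and 1.96% of genes, the lowest being HSP90AB1 at −0.70 (adjusted p = 0.186). There 2431 genes and 2 members had an unadjusted p under 0.05, and DESeq2 called 1334 genes and no member.

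Cycloheximide stalls ribosomes on the mRNA, puromycin releases nascent chains, and CCCP collapses the mitochondrial membrane potential. Under these drugs, HSPB1 was called lower with labelling in 4 of 6 contrasts. With cycloheximide, it had 15.68 and 17.42 CPM in labelled NES libraries, against 56.81 and 72.68 unlabelled (−1.97, SE 0.28, adjusted p = 4.26e-05), and was the only member called there, with 7.77% of the 21441 genes tested lower. With puromycin it had 32.33 and 31.65 CPM in labelled NES libraries, against 75.11 and 112.9 unlabelled (2.94-fold lower, log2 SE 0.27, adjusted p = 0.000899), again alone, against 4.58% of genes. With CCCP it had 34.15 and 28.91 CPM in labelled NES libraries, against 72.92 and 73.27 unlabelled (−1.21, SE 0.27, adjusted p = 0.00622), alone, against 5.08%. Labelled libraries were below unlabelled ones in all 3.

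In OMM the HSPB1 call was made with CCCP alone. With CCCP it had 41.54 and 32.44 CPM labelled, against 84.39 and 102.0 unlabelled (−1.33, SE 0.27, adjusted p = 0.00389), and was the only member of 10 called, against 3.57% of genes. With puromycin it had 37.35 and 37.14 CPM labelled, against 76.75 and 59.11 unlabelled (−0.87, adjusted p = 0.133). No member was called by edgeR with puromycin, where 2.13% of genes were; 2218 genes and 1 member had an unadjusted p under 0.05, and DESeq2 called 1027 genes, HSPB1 (−0.96, adjusted p = 0.000952) among them. With cycloheximide its labelled 22.47 and 28.84 CPM lay just below the unlabelled 35.37 and 29.70 (−0.34, adjusted p = 0.379). Both CCCP calls of HSPB1 were lost without the labelled replicate 2.

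With cycloheximide, 2 other members were lower in labelled OMM libraries, against 5.35% of genes. HSP90AB1 had 1588 and 1522 CPM labelled, against 2257 and 2346 unlabelled (−0.57, SE 0.09, adjusted p = 0.000257). HSPA1B had 201.6 and 298.4 CPM labelled, against 734.4 and 571.6 unlabelled (2.61-fold lower, log2 SE 0.47, adjusted p = 0.0461). The groups were apart for both, but the HSPA1B call was lost without any 1 of its 4 libraries, and both unlabelled ones are low-complexity libraries, with 3.08% and 7.75% of well-expressed genes at 0. HSPA8 was not called by edgeR in the drug table, at −0.63 in NES and −0.64 in OMM with cycloheximide, −0.58 and −0.05 with puromycin, and −0.63 and −0.10 with CCCP. It was below both controls in 5 of these 6 contrasts. DESeq2 called HSPA8 lower with cycloheximide in NES (−0.69, adjusted p = 0.03355) and in OMM (−0.65, adjusted p = 0.0437), and not with the other drugs.

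OMM and NES differed in labelling for 2 members under cycloheximide. The OMM minus NES difference was 1.62 for HSPB1 (SE 0.38, adjusted p = 0.00642), where 9.38% of genes were called higher, and −0.51 for HSP90AB1 (SE 0.13, adjusted p = 0.0143), where 4.16% were lower. With puromycin edgeR called no member and 0.112% of genes, 1861 genes and no member had an unadjusted p under 0.05, and DESeq2 called 561 genes and no member. With CCCP it called no member and 0.00933% of genes, 1648 genes and no member had an unadjusted p under 0.05, and DESeq2 called 459 genes and no member. The cycloheximide controls of OMM are the low-complexity libraries named above. The HSPB1 difference held without any 1 library, whereas that of HSP90AB1 was lost without NES cycloheximide labelled 2, OMM cycloheximide labelled 2 or OMM cycloheximide unlabelled 2.

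**Figure D3:**
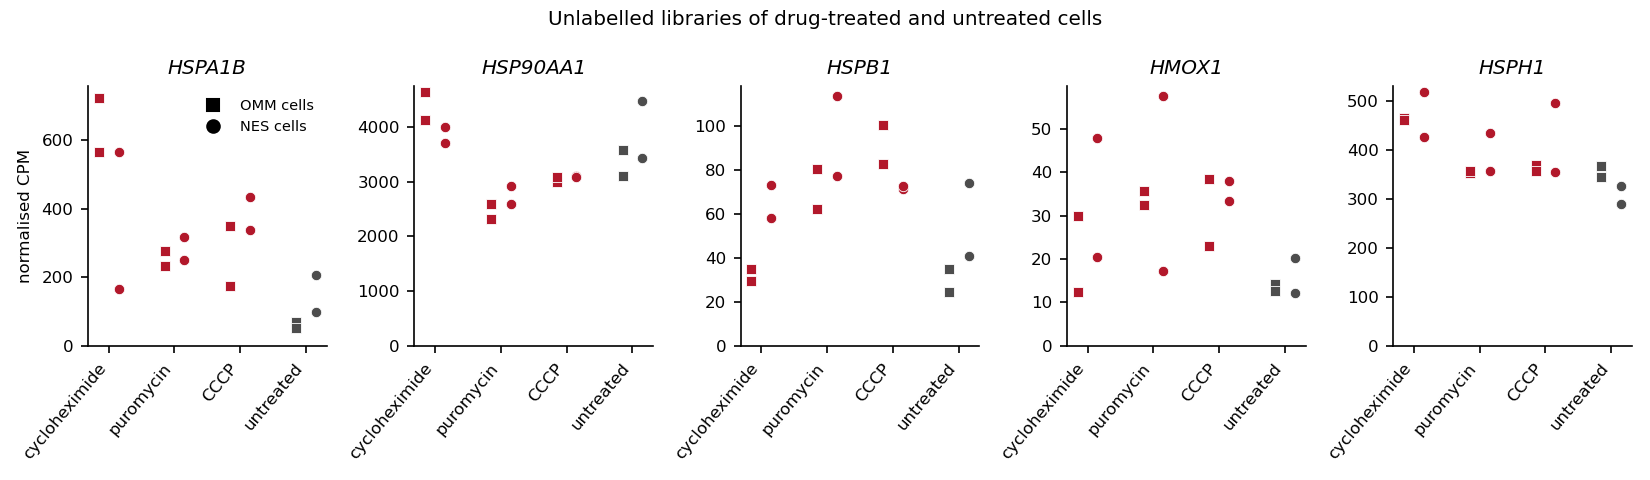
Normalised CPM (linear axis from 0) of HSPA1B, HSP90AA1, HSPB1, HMOX1 and HSPH1 in unlabelled OMM (squares) and NES (circles) libraries with cycloheximide, puromycin, CCCP or no drug, 1 point per library. HSPA1B is at 165.3 to 724.3 CPM in treated libraries, against 51.62 to 207.8 in untreated ones.

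Drug-treated and untreated cells were compared over unlabelled libraries, which met no peroxide but, as said above, may not measure levels in whole cells. Treated and untreated cells come from different tables, so that the treatment and the set of libraries cannot be told apart. HSPA1B, the stress-induced HSP70, was higher with every drug. With cycloheximide it had 724.3 and 564.7 CPM in OMM cells and 165.3 and 566.0 in NES cells. Untreated OMM cells had 69.42 and 51.62 CPM and untreated NES cells 99.38 and 207.8. Treated values were above untreated ones within each line, except that the lower NES value of cycloheximide lay between the untreated NES values. The mean log2 fold change over both lines was 2.33 (SE 0.31, adjusted p = 0.00349), or 5.04-fold, and HSPA1B was the only member called, with 0.0152% of the 19695 genes tested higher.

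HSPA1B was also called higher with puromycin and CCCP. With puromycin it had 276.9 and 231.6 CPM in OMM cells and 316.8 and 249.2 in NES cells (1.48, SE 0.30, adjusted p = 0.0190, or 2.78-fold), alone, against 0.386% of genes higher. With CCCP it had 351.0 and 174.9 CPM in OMM cells and 339.3 and 434.7 in NES cells (1.73, SE 0.30, adjusted p = 0.00912, or 3.31-fold), alone, against 0.294% higher. All but 1 of these 8 values lay above every untreated value, the exception being the OMM CCCP value of 174.9. Untreated cells of another line reached similar levels: unlabelled NLS libraries had 291.9 and 251.7 CPM, in a table normalised separately. The calls were lost without NES-unlabelled 1 for each drug, and for puromycin and CCCP also without some treated or untreated libraries. A refit without low-complexity libraries left 1 untreated library of each line, and kept the more complete of the OMM cycloheximide ones. There the values were 2.11, 1.16 and 1.41 with cycloheximide, puromycin and CCCP.

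Among the other members, edgeR called only HSP90AA1 against untreated cells. It was lower with puromycin, at 2591 and 2326 CPM in OMM and 2592 and 2922 in NES cells, against 3581 and 3110 in untreated OMM and 4482 and 3434 in untreated NES cells (−0.48, SE 0.11, adjusted p = 0.0377; 0.340% of genes lower). The groups did not overlap, and the call was lost without 6 of its 8 libraries. HSPB1 was at 0.99 with puromycin (adjusted p = 0.116) and 0.97 with CCCP (adjusted p = 0.188) in edgeR. DESeq2 called HSPB1 higher with both puromycin (0.996, adjusted p = 0.00216) and CCCP (0.97, adjusted p = 0.00424). It also called HSPH1 higher with cycloheximide (0.52, adjusted p = 0.00181). With puromycin it called BAG3 higher (0.63, adjusted p = 0.0350) and HSP90AB1 lower (−0.22, adjusted p = 0.0102). HMOX1 was at 0.87 with cycloheximide (adjusted p = 0.589), 1.27 with puromycin (adjusted p = 0.449) and 1.17 with CCCP (adjusted p = 0.665). Its replicates disagreed, with 57.60 and 17.31 CPM in NES cells with puromycin, against 12.12 to 20.35 CPM in untreated cells. Among the list genes, the cochaperone BAG2 was higher with cycloheximide (1.89, adjusted p = 0.0494), and the glutathione peroxidase GPX4 was higher with puromycin (1.09) and CCCP (1.41).

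No difference of the drug effect between OMM and NES cells was called for a member. For cycloheximide, 0.00508% of genes and no member were called, 1308 genes and 1 member had an unadjusted p under 0.05, and DESeq2 called 603 genes and no member; that member, HSPA1B, was at 2.16 (SE 0.59, adjusted p = 0.427). For puromycin 0% were called, 352 genes and no member had an unadjusted p under 0.05, and DESeq2 called 102 genes and no member. For CCCP 0% were called, 307 genes and 1 member, HSPB1, had an unadjusted p under 0.05, and DESeq2 called 70 genes and no member. In the refit without low-complexity libraries the HSPA1B difference for cycloheximide was 2.54. That refit left 1 library each of untreated OMM, untreated NES and OMM cycloheximide cells. The last of these had itself 2.99% of well-expressed genes at 0.

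Set against each other within 1 table, the drugs differed for 2 members. HSP90AA1 was higher with cycloheximide, at 4634 and 4129 CPM in OMM and 3708 and 4000 in NES cells, than with puromycin (0.70, SE 0.11, adjusted p = 0.000533; 3.08% of genes higher). HSPB1 was lower, at 34.88 and 29.34 CPM in OMM and 57.83 and 72.80 in NES cells with cycloheximide, against 80.11 and 61.96 in OMM and 76.87 and 113.5 in NES cells with puromycin (−0.80, SE 0.19, adjusted p = 0.0135; 5.17% of genes lower). With CCCP against cycloheximide HSPB1 was higher (0.85, SE 0.19, adjusted p = 0.0111; 5.23% of genes higher) and HSP90AA1 lower (−0.40, SE 0.10, adjusted p = 0.0267; 1.53% of genes lower). Both contrasts share the cycloheximide libraries. The HSPB1 call of cycloheximide against puromycin was lost without OMM puromycin unlabelled 1, and without the low-complexity libraries (−0.59), and the HSP90AA1 call of CCCP against cycloheximide without 6 of 8 libraries. Between CCCP and puromycin edgeR called no member and 0.0700% of genes; 2807 genes and 2 members had an unadjusted p under 0.05, and DESeq2 called 1368 genes and no member.

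Nocodazole depolymerises microtubules. At every time after it was added, HSPA8 was lower in labelled than in unlabelled libraries of both lines. In NES its labelled values were 1003 and 1083 CPM at 3 min, 1077 and 1026 at 6 min, 1208 and 1188 at 9 min, 910.1 and 939.7 at 30 min, and 833.9 and 823.9 at 2 h. Unlabelled NES had 2349 and 2162 CPM at 3 min and 1635 and 2284 at 30 min. No labelled value reached the lowest unlabelled one. HSPA8 was also called lower in labelled NES and OMM libraries without nocodazole, as given above. All times of a line are set against the same 4 unlabelled libraries, so the contrasts are not independent, and nocodazole and time are not separated by an untreated series.

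The HSPA8 differences in NES were −1.01 at 3 min (adjusted p = 1.53e-05), −1.0 at 6 min (adjusted p = 1.49e-05), −0.81 at 9 min (adjusted p = 0.000975) and −1.34 at 2 h (adjusted p = 7.16e-07), and the 30-min difference was also called (adjusted p = 4.51e-06). At 3 min HSPA8 was the only member of 9 called lower, against 2.14% of the 19611 genes tested, and at 6 min likewise, against 2.38%. At 9 min HSPA8 and HSP90AB1 (−0.62, adjusted p = 0.00171) were lower, against 0.826%, and at 30 min the same 2 (HSP90AB1 −0.56, adjusted p = 0.00239), against 1.40%. At 2 h HSPA8, HSP90AB1 (−0.41, adjusted p = 0.0180) and HSPA1B (−1.31, adjusted p = 0.0484) were lower, against 1.81%. The HSPA8 and HSP90AB1 calls at 9 min were lost without the labelled replicate 1, those of HSP90AB1 at 30 min and 2 h without either labelled replicate, and that of HSPA1B at 2 h without either labelled replicate or 2 of the 4 unlabelled ones. The HSP90AB1 call at 2 h was also lost without the 3-min unlabelled replicate 2 and without the low-complexity libraries.

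In OMM, HSPA8 had labelled values of 1082 and 1005 CPM at 3 min, 917.7 and 850.3 at 6 min, 1069 and 962.2 at 9 min, 883.0 and 1147 at 30 min, and 831.0 and 962.2 at 2 h. Unlabelled OMM had 2077 and 1889 CPM at 3 min and 1470 and 1464 at 30 min. HSP90AB1 had labelled values of 1769 and 1593, 1478 and 1385, 1305 and 1264, 1484 and 1425, and 1661 and 1684 CPM at the same 5 times, against 2440 and 2667 CPM at 3 min and 2378 and 2254 at 30 min unlabelled. For both genes every labelled value lay below every unlabelled one. Members called lower were HSPA8, HSP90AB1 and HSP90AA1 at 3 min (1.88% of genes), 6 min (3.00%), 9 min (2.53%) and 30 min (2.09%), and HSPA8 and HSP90AB1 at 2 h (2.89%).

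The sizes in OMM were −0.71, −0.95, −0.75, −0.75 and −0.93 for HSPA8 at 3, 6, 9 and 30 min and 2 h, with adjusted p from 1.24e-05 to 0.000485. They were −0.53, −0.76, −0.92, −0.74 and −0.54 for HSP90AB1, and −0.37, −0.40, −0.45, −0.50 and −0.25 for HSP90AA1, the last not called (adjusted p = 0.0937). HSP90AA1 labelled values lay between 2454 and 2966 CPM, and its unlabelled values between 2986 and 3798 CPM, so the groups came close. In NES HSP90AA1 differed by −0.06 to 0.09 and was not called. The HSP90AA1 calls were lost at 3 min without labelled 1, the 3-min unlabelled 1 or the 30-min unlabelled 2, at 6 min without either labelled replicate, and at 9 min without labelled 2.

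The values of the low-abundance members in the OMM nocodazole series rest on uneven controls. HMOX1 had 54.48 and 92.50 CPM in the unlabelled 3-min libraries, but 46.51 and 0.04953 CPM, the last a single count, in the unlabelled 30-min ones, against 14.50 to 33.66 CPM labelled. BAG3 had 2.533 and 47.19 CPM in the unlabelled 3-min libraries. All 4 unlabelled OMM libraries were of low complexity, with 11.5% and 13.4% of well-expressed genes at 0 at 3 min and 2.98% and 16.3% at 30 min. Its part in these values was not tested. Refitted with the most complete library of each such group, BAG3 was higher in labelled OMM at every time, by 1.95 to 2.58 and called, against controls that then include the 3-min library at 2.533 CPM. In the same refit HSPB1 was called lower at 6 min (−1.38), 9 min (−1.72), 30 min (−1.30) and 2 h (−1.94). None of these calls was made with all libraries.

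**Figure D4:**
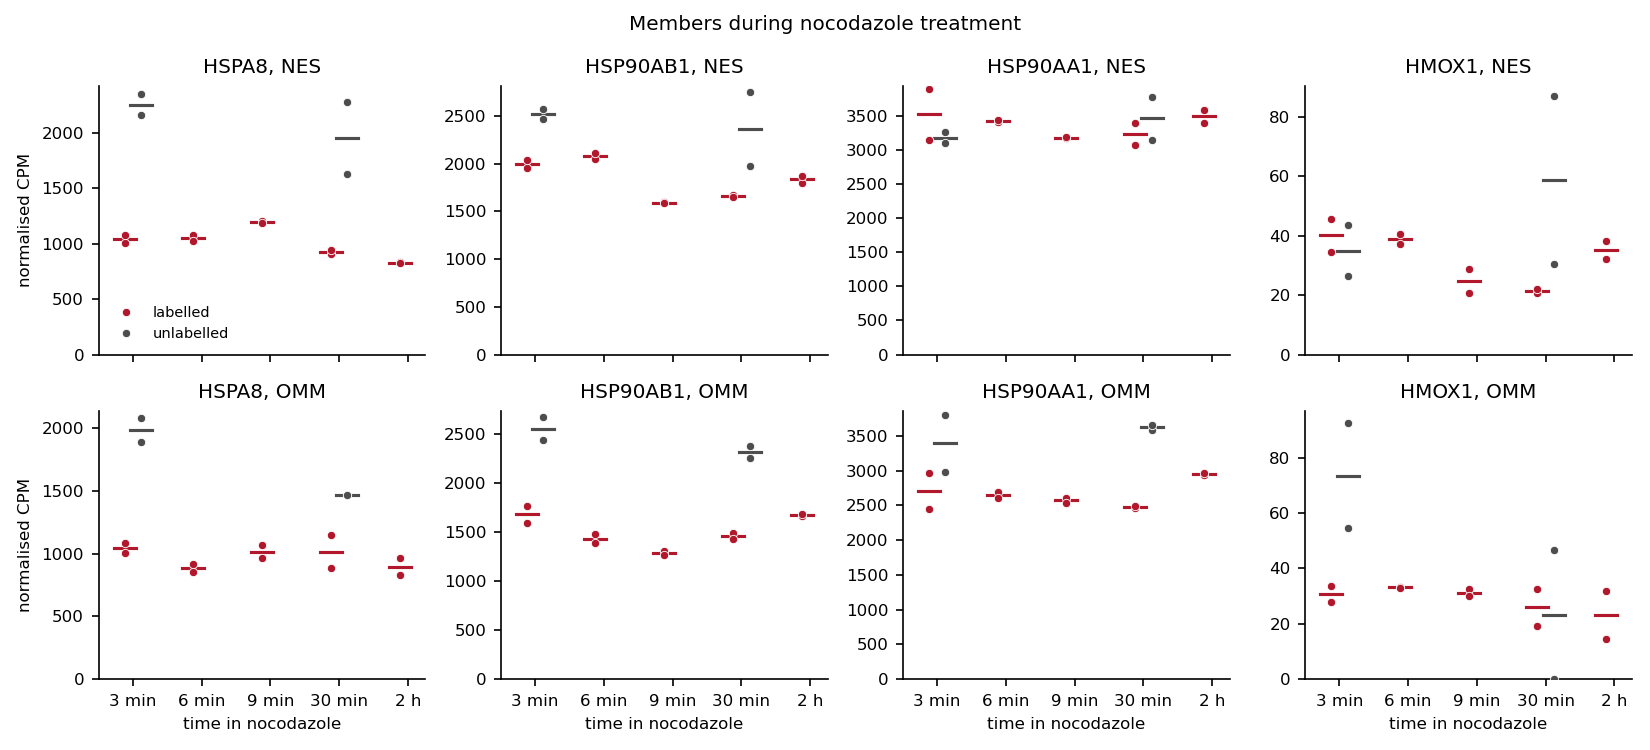
Normalised CPM (linear axis from 0) of HSPA8, HSP90AB1, HSP90AA1 and HMOX1 by time in nocodazole, labelled left of unlabelled, in NES (top) and OMM (bottom), 1 point per library and a bar at the mean of 2. HSPA8 in NES is at 823.9 to 1208 CPM in labelled libraries, below the unlabelled 1635 to 2349.

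No member was called over time. Labelled NES at 2 h against 3 min gave 0.0255% of genes, with 521 genes and 1 member at an unadjusted p under 0.05, and 115 genes and no member called by DESeq2. Labelled OMM gave 0.449% of genes, with 2103 genes and 2 members at an unadjusted p under 0.05, and 1110 genes and no member by DESeq2. Its largest positive member change was that of HSPH1, 0.63 (adjusted p = 0.349). Unlabelled cells at 30 against 3 min gave 3.37% of genes in edgeR and no member, with 3303 genes and 2 members at an unadjusted p under 0.05. DESeq2 called 2668 genes there, with HSPA1B (−0.87, adjusted p = 0.0178) and HSPA8 (−0.36, adjusted p = 0.00233) lower. The labelling difference of OMM against NES gave no member either, with 4.19% of genes at 3 min and 0.449% at 30 min. At 3 min 3474 genes and 1 member had an unadjusted p under 0.05 and DESeq2 called 2640 genes, and at 30 min 1966 genes and 3 members did and DESeq2 called 1034 genes, with no member at either time.

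In fractionated cells 7 of the 10 members were lower in the nuclear than in the cytosol fraction, where 27.8% of the 19115 genes tested were lower. HSPB1 had 17.45 and 15.86 CPM in the nuclear fraction, against 54.38 and 65.41 in the cytosol fraction (−1.85, SE 0.22, adjusted p = 2.17e-05). HMOX1 had 31.55 and 27.84 CPM nuclear, against 57.83 and 69.14 cytosol (−1.10, SE 0.21, adjusted p = 0.000592), its single call in the whole series. BAG3 had 38.21 and 34.26 CPM nuclear, against 59.03 and 68.61 cytosol (−0.82, SE 0.20, adjusted p = 0.00341). The fractions did not overlap for any of these 3.

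The HSP70 mRNAs were not called between the fractions. HSPA8 had 3748 and 3569 CPM in the nuclear fraction, against 3485 and 4368 in the cytosol fraction (−0.10, adjusted p = 0.641). HSPA1B had 172.0 and 198.4 CPM nuclear, against 126.3 and 178.7 cytosol (0.28, adjusted p = 0.220). For both genes the fractions overlapped. HSPA1A had 0.8629 and 1.136 CPM nuclear, against 0.7963 and 0.7086 cytosol, without a call.

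The HSP90 genes and the other cochaperones were all lower in the nuclear fraction. DNAJB1 had 67.12 and 70.83 CPM nuclear, against 110.5 and 120.7 cytosol (−0.75, SE 0.17, adjusted p = 0.00235). HSP90AA1 had 4208 and 3538 CPM nuclear, against 5830 and 6833 cytosol (−0.71, SE 0.18, adjusted p = 0.00487), and HSP90AB1 2791 and 2417 nuclear, against 3714 and 3955 cytosol (−0.56, SE 0.17, adjusted p = 0.0137). HSPH1 had 436.7 and 394.4 CPM nuclear, against 567.8 and 633.7 cytosol (−0.53, SE 0.16, adjusted p = 0.0134). None of the 4 overlapped between fractions, in a contrast where 34.2% of all genes were called higher and 27.8% lower. The calls of HSP90AA1 and HSP90AB1 were lost without either cytosol library, that of HSPH1 without the replicate 2 of either fraction, and that of BAG3 without nuclear 2. Those of HSP90AA1 and HSP90AB1 were also lost with the replicate block. Without the filter on low counts, the calls of HSP90AA1, HSP90AB1 and HSPH1 were lost.

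**Figure D5:**
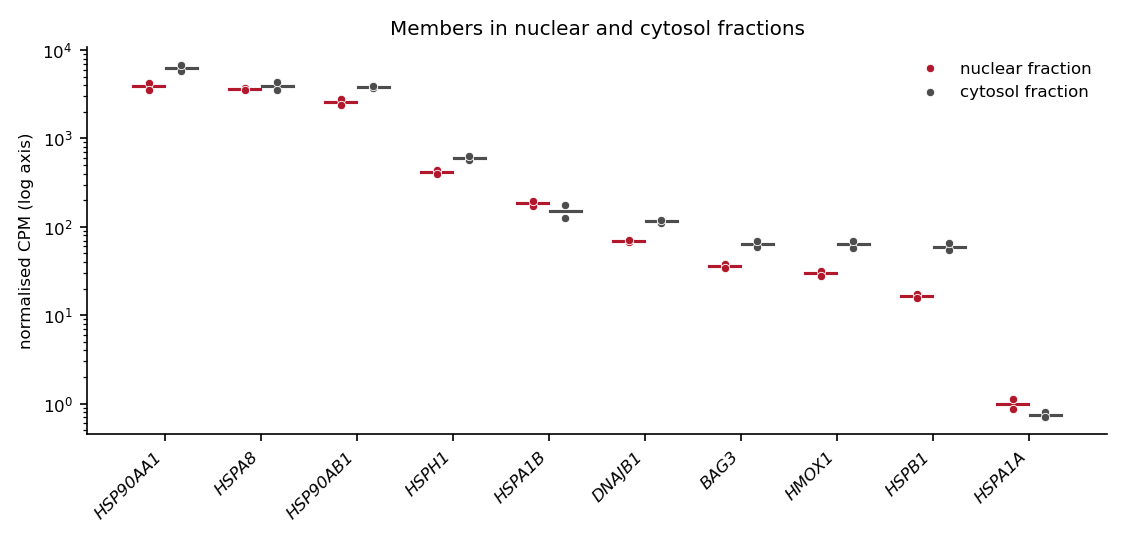
Normalised CPM (log10 axis) of the 10 members in nuclear and cytosol fractions, nuclear left of cytosol, 1 point per library and a bar at the mean of 2. HSPB1 is at 17.45 and 15.86 CPM in the nuclear fraction, against 54.38 and 65.41 in the cytosol fraction, while HSPA8 and HSPA1B overlap.

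The gene lists were counted in the fractions too, beside calls for 34.2% of all genes higher in the nuclear fraction and 27.8% lower there. Of 44 tested heat shock genes, 5 were higher and 30 lower in the nuclear fraction, with a median of −0.76 against 0.11 for all genes, SERPINH1 (2.00) and HSPA13 (1.82) among the higher and HSPE1 (−1.87) among the lower. Of 51 NRF2 genes, 5 were higher and 37 lower, with a median of −1.0, FTH1 (−2.44), the ferritin heavy chain, and GPX4 (−1.82) among the lower and the efflux pump ABCC1 (1.58) among the higher. The landmarks MALAT1 (4.52) and MT-CO1 (−2.89) separated the fractions, and RPS29 (−1.42) was lower in the nuclear one. However, SCD (0.80), SEC61A1 (1.12) and ALDH18A1 (1.27), which were called higher in ERM or OMM, were also called higher in the nuclear fraction. A higher value there can therefore not be read as location in the nucleus alone.

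Across the 15 labelling contrasts of constructs and drugs, the likeness of the genes' log2 fold changes was compared over 11560 genes by Pearson's r. The contrasts share tables, and r is a description without a test. The gene most like HSPA8 was ANXA2 (0.851), like HSP90AB1 KHDRBS1 (0.909), like HSP90AA1 its fellow chaperone gene HSPA4 (0.884) and like HSPH1 CKAP2 (0.91). DNAJB1 was most like VWA9 (0.913), HSPB1 like TMEM14A (0.95), BAG3 like C8orf33 (0.797) and HMOX1 like PYCR1 (0.941). Within the members, HSPH1 and HSP90AB1 (0.757), HSPA8 and HSP90AB1 (0.656) and DNAJB1 and HSP90AA1 (0.645) were the most alike pairs, and HSPH1 and HSPB1 (−0.486) the least.

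The authors' deposited table of labelled against unlabelled fold changes can be set beside these values. Its column names carry the mark 18C, which may stand for all 18 unlabelled construct libraries as controls. The sources used here do not say. The main edgeR values use the 2 unlabelled libraries of each construct. Between these and the authors' values, here and in earlier paragraphs, controls and method cannot be told apart. In the authors' deposited table HSPA8 is at −1.31 in ERM (p = 2.31e-07), −1.14 in OMM (p = 1.32e-05) and −0.78 in NES (p = 0.00702). For NIK, where edgeR made no call of HSPA8, the authors' deposited table gives −0.86 (p = 0.00172). For NLS, where edgeR called all 4 lower, the authors' deposited table gives −0.38 for HSPA8 (p = 0.257), −0.46 for HSP90AA1 (p = 0.0523), −0.23 for HSPH1 (p = 0.447) and −0.23 for HSPA1B (p = 0.775). Set against the unlabelled libraries of all 9 constructs, edgeR gave −0.38 for HSPA8, −0.25 for HSPH1 and −0.14 for HSPA1B in NLS. The authors' deposited table gives HSP90AB1 at −0.99 in LMA (p = 7.63e-12), −0.90 in OMM (p = 4.25e-10) and −0.63 in NLS (p = 3.26e-05), and HSPB1 at −2.48 in NIK (p = 8.65e-06) and −1.29 in ERM (p = 0.00674). For KDEL the authors' deposited table lists p = 0.9998 for the members. Whether these p-values are adjusted is not given in the sources used here.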

How the data were processed

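RNA-seq counts from 97 libraries in 49 groups of HEK293T cells were used. Raw counts per gene were deposited by the authors. The submitters' processing notes list Trimmomatic, STAR, HTSeq, SAMtools, bedtools, DESeq2 and GRCh38; versions and the strand setting of the counting are not given in the sources used here. The authors also deposited a table of log2 fold changes and p-values of labelled against unlabelled libraries. Its adjustment and its control libraries are not given in the sources used here. Libraries were stranded, paired and poly(A)-selected, apart from MITO total RNA, per the labels' protocols, and held 2835969 to 76714068 counts. The 4 poly(A) MITO columns stand in 2 tables with identical values and were used once per fit.

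Each table was fitted whole with edgeR 4.0.16 (R 4.3.3, limma 3.58.1; filterByExpr, TMM, quasi-likelihood test, all groups sharing 1 estimate of the spread), with contrasts between group means, Benjamini-Hochberg adjustment over all genes tested and a threshold of 0.05. Drug-treated and untreated unlabelled libraries were joined from 2 tables by gene ID. For nocodazole, the labelled group of a time was compared with the average of the 3-min and 30-min unlabelled groups of its line. Plots and summaries used Python 3.11.15, numpy 2.4.6, pandas 2.3.3 and matplotlib 3.10.9; the likeness of genes used log2 fold changes of normalised CPM with a pseudocount of 1. Gene names are the authors', with GENCODE release 29 for the rest.

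The 10 genes, the gene lists and the tests were chosen with earlier results of these data known. The text names the 10 genes everywhere, up to 3 called genes per list and direction, and the gene most like each member; a gene that these rules would name is not reported here. Of 48 listed heat shock genes 47 matched an ID, all but AHSA2P, and of 52 NRF2 genes 52 did. Alternatives were no filter on low counts, RLE size factors, DESeq2 1.42.0, a replicate block, HSPA1A and HSPA1B summed, other control libraries, only the libraries of a comparison, the technical repeat added, low-complexity libraries left out, and each library left out in turn, for which the trended dispersion of the full fit was kept. Replicate numbers 1 and 2 are shared by groups, but the deviations of same-numbered libraries from their group means correlated at −0.144 to 0.106, so the numbers were not taken as pairs. The fit was tested on simulated data, in which 10% of genes changed 2-fold and 52% of genes changed 4-fold were called in NES, and 56% and 98% in the fractions. No table column lacked a sample of this series.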

Additional observations from a re-analysis of the deposited data

Results flagged for a closer look

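Differences of the labelling effect between constructs, each with its own test in edgeR, were called for 4 members. The OMM minus NES difference of HSPH1 was −1.01, with labelled over unlabelled lower in OMM. DNAJB1 differed from NES in OMM (−1.09), in NLS (−1.32) and in poly(A) MITO (−1.24), all 3 against the same NES libraries, in which DNAJB1 had 186.4 and 213.0 CPM labelled, against 99.24 and 143.4 unlabelled. Of 7 other settings, the DNAJB1 call held in 3 for OMM, 5 for poly(A) MITO and 7 for NLS, and the HSPH1 call in 5. These calls of DNAJB1 and HSPH1 were all lost without NES-unlabelled 1. With cycloheximide the OMM minus NES difference was −0.51 for HSP90AB1 and 1.62 for HSPB1, the last from 22.47 and 28.84 CPM labelled, against 35.37 and 29.70 unlabelled in OMM, and 15.68 and 17.42 labelled, against 56.81 and 72.68 unlabelled in NES.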

How the results depend on the processing

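Most single values kept their direction and side of the threshold: of the values refitted, 471 did so with RLE size factors (3 gained and 4 lost a call), 449 without the filter (23 gained, 6 lost), 453 with DESeq2 (25 gained), 462 with the replicate block (7 gained, 9 lost), 418 without low-complexity libraries (44 gained, 6 lost), 400 with only the libraries of a comparison (9 gained, 37 lost), 65 with all 9 unlabelled groups as controls (14 gained, 2 lost), 459 with HSPA1A and HSPA1B summed and 18 with the technical repeat. Leaving out 1 library kept 2966, with 63 gained, 113 lost and 6 reversed. Without the unlabelled 30-min replicate 1 of OMM with nocodazole, HMOX1 reversed to 3.94, 4.04, 3.96, 3.69 and 3.52 at 3, 6, 9 and 30 min and 2 h, its other 30-min control holding 1 count; the lowest values with 1 library left out were −0.92, −0.82, −0.90, −1.17 and −1.51. DNAJB1 in OMM against NES at 3 min ranged from −0.86 to 1.42, the last without the unlabelled 3-min replicate 1 of OMM, and the cause was not tested.

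Counts of member calls moved by more than 1.5 times as follows. The 9 constructs gave 19, and 31 against all 9 unlabelled groups. Differences between constructs gave 4, but 7 without the filter, 9 with DESeq2, 9 without low-complexity libraries and 2 with their own libraries only. Drug labelling gave 6, but 12 without the filter, 10 with DESeq2, 10 with the replicate block and 11 without low-complexity libraries. OMM against NES under drugs gave 2, but 1 with the replicate block and 0 with own libraries. Drugs against each other gave 4, but 7 without the filter and 0 with own libraries, and against untreated cells 4, but 9 with DESeq2 and 2 with own libraries. The drug effect in OMM against NES gave 0, and 1 without the filter or without low-complexity libraries. Nocodazole labelling gave 23, but 35 without low-complexity libraries and 3 with own libraries. Nocodazole over time gave 0, but 1 with RLE size factors, 1 without the filter, 2 with DESeq2 and 1 without low-complexity libraries, and OMM against NES 0, but 2 without the filter and 3 without low-complexity libraries. The fractions gave 7, and 4 without the filter. The cause was not tested for these, apart from fewer libraries in the fits on own libraries.

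With 1 library left out, the calls numbered 16 to 21 in the 9 constructs, 5 to 7 in their mean, 1 to 7 between constructs, 0 in MITO total RNA, 5 to 8 for drug labelling, 1 to 3 for OMM against NES, 3 to 5 between drugs, 0 to 6 against untreated cells and 0 to 1 for the drug effect. They numbered 21 to 31 for nocodazole labelling, 0 to 3 over time, 0 to 3 for OMM against NES and 5 to 7 in the fractions. The replicate numbers were not taken as pairs, although low correlations of same-numbered libraries cannot exclude pairing, and the block was run only as an alternative. With 2 libraries a group, depth and spread limit what could be called for the low genes HMOX1, BAG3 and HSPB1.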
